A study of Homo sapiens with 6 samples.

Results

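The 10 genes described here encode the kinases that drive cells into and through mitosis and the core of the chromosomal passenger complex. They were chosen by name from the 58735 genes of the deposited table, with earlier results of these data known. They are the entry kinases CDK1, PLK1, AURKA and NEK2, the spindle checkpoint kinases BUB1, BUB1B and TTK, and the passenger complex genes AURKB, BIRC5 and INCENP. All 10 were present in the table and all passed the filter on low counts, as did 14736 genes in all. They were measured by RNA sequencing of poly-T purified mRNA in MDA-MB-231, a human TNBC (triple-negative breast cancer) cell line, labelled wild type. The 3 vehicle samples were given vehicle for 24 h, and the 3 SCH samples were given SCH, an aqueous extract of the herb Salvia chinensis Benth, at 100 mg/l for 24 h. The whole comparison therefore rests on 1 cell line, 1 dose and 1 time. The labels do not say whether the samples came from separate cultures, so the spread between samples may be technical.

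CDK1 bound to cyclin A or cyclin B is the kinase that commits a cell to mitosis, and PLK1 and AURKA help to activate it and to build the spindle poles. NEK2 separates the centrosomes. BUB1, BUBR1 (the product of BUB1B) and TTK act at kinetochores, where they hold back anaphase until every chromosome is attached. AURKB is the enzyme of the chromosomal passenger complex, INCENP is its scaffold and activator, and survivin (the product of BIRC5) brings it to centromeres together with borealin (the product of CDCA8). Most of these genes are transcribed mainly in G2 and mitosis, and in many tumours, TNBC among them, their transcripts are known to follow the share of dividing cells. In a bulk sample, fewer cells in G2 or mitosis and less transcript per cell cannot be told apart.

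Gene-assigned reads came to 20291379, 18714240 and 18334857 in the vehicle samples and 16836369, 17979434 and 18414924 in the SCH samples. The 10 genes together took 1283, 1267 and 1309 CPM (counts set relative to the library's total) in the vehicle samples and 806.5, 832.5 and 831.5 in the SCH samples, so the summed level was lower in every SCH sample. The labelled line was checked against its known markers. VIM, a mesenchymal intermediate filament gene that this line carries at a high level, was at 263.5 ± 4.46 FPKM (fragments scaled to gene length and library size, SD, n = 3) in vehicle samples and 180.1 ± 3.45 in SCH samples, and CD44, a surface marker of the line, was at 96.6 ± 2.94 and 99.3 ± 1.95 FPKM. The hormone receptor genes ESR1 and PGR and the epithelial cadherin gene CDH1 had a mean of at most 4.67 counts in either group. ERBB2, the receptor gene whose lack of amplification completes the triple-negative definition, was detected at 6.67 ± 0.199 FPKM in vehicle and 8.22 ± 0.562 in SCH samples and was called raised (0.29, adjusted p = 0.000164), and the epithelial gene EPCAM, at 6.53 ± 0.469 and 4.59 ± 0.344 FPKM, was called lowered (-0.51, adjusted p = 9.22e-05). Of 7 markers of other cell types, 3 had enough counts to be tested, and the 7 summed to 0.877 to 0.913 FPKM in vehicle and 0.976 to 1.13 FPKM in SCH samples. The most abundant was the fibroblast gene COL1A1, at 0.481 ± 0.049 FPKM in vehicle and 0.819 ± 0.051 in SCH samples, which was called raised (0.76, adjusted p = 4.26e-05). The leukocyte marker PTPRC, with a mean of 36.7 counts in vehicle and 5.33 in SCH samples, was called lowered (-2.75, adjusted p = 8.8e-07), PECAM1 did not pass, and none of the 7 was at 0 in every sample. The part of these low signals in the results was not tested.

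Promoter windows (RefSeq, GRCh38.p14) were at hand for 7 of the 10 genes, all but AURKA, BIRC5 and TTK, and are shown because genes of this group are known for a shared promoter layout. That layout pairs a CHR (cell cycle genes homology region, searched as TTTGAA or TTTAAA) with CCAAT boxes (searched as CCAAT). Both strands were searched over the 250 bases before each start site, and no match of one motif overlapped a match of another in these genes. Capitals mark the matches, ATTGG being CCAAT read on the other strand, and positions count back from the start site, with the base before it at -1. For PLK1, the gene that fell most, and for CDK1, the gene that did not pass the test, the stretches shown lie at chr16:23678841-23678870 (plus strand, -48 to -19) and at chr10:60778160-60778215 (plus strand, -171 to -116 of the more upstream start site).
PLK1: taacgttcccagcgccgcgTTTGAAttcgg
CDK1: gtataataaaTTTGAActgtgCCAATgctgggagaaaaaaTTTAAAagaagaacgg
BUB1B, INCENP, AURKB, NEK2 and BUB1 are shown because they carry only 1 of the motifs or carry them in another arrangement. Their stretches lie at chr15:40161036-40161061 (plus strand, -33 to -8), chr11:62123981-62124010 (plus strand, -30 to -1), chr17:8210364-8210388 (minus strand, -163 to -139 of the first of the start sites listed), chr1:211675641-211675697 (minus strand, -76 to -20) and chr2:110678108-110678137 (minus strand, -74 to -45).
BUB1B: gaccgttaaaTTTGAAacttggcggc
INCENP: ggATTGGctgagccttcagtTTTGAAaatc
AURKB: cagcgcccagATTGGggctagtgtg
NEK2: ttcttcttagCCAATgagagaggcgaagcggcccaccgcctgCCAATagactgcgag
BUB1: ccaaccttctgccgccgccaCCAATgggca
The stretches of PLK1, BUB1B, INCENP and BUB1 also overlap annotated exons of transcripts of the same genes that start further upstream, and those of CDK1, AURKB and NEK2 lie in no annotated exon.

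A CCAAT match stood in the windows of 6 of the 7 genes and a CHR match in those of 4 (PLK1, CDK1, BUB1B and INCENP). Of all 35116 RefSeq promoter windows of the same length, 32.0% and 21.9% had such matches. The 7 genes had 9 windows, and a gene counted if any of its windows matched, whereas these shares are of single windows. PLK1, CDK1 and INCENP had both, which 7.64% of all windows had. PLK1 had 3 CHR matches and 1 CCAAT match, and CDK1 had 2 CHR matches in the windows of each of its start sites. In the more downstream window of CDK1, which is not shown above, the CHR matches lay at -69 to -64 and at -13 to -8. An E2F site, searched as TTTCCCGC, TTTCGCGC, TTTGCCGC or TTTGGCGC, was found in the more downstream window of CDK1 and in no other of these genes, against 2.79% of all windows. PLK1 and CDK1, which both carried CHR and CCAAT matches, stood at the opposite ends of the order of changes given below. Whether the matches go with the changes was not tested, and AURKA, BIRC5 and TTK had no window. A match of letters is a description of the sequence and not a measured binding site.

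After 24 h of SCH, 9 of the 10 genes were lowered at an adjusted p under 0.05 (edgeR's quasi-likelihood test with Benjamini-Hochberg adjustment over all 14736 tested genes), and none was raised. Of all tested genes 58.7% passed this threshold, 29.4% lowered and 29.3% raised, so passing it is common in these data, and the size of the falls separates the members more than the call does. The median log2 fold change of the 10 genes was -0.52, and that of all tested genes was -0.003. Only PLK1 and AURKA, 2 of the 10, passed with a fall of 1 or more in log2 units, as did 4.88% of all tested genes. Every SCH sample lay below every vehicle sample in 9 of the 10, against 31.3% of all tested genes. Since the 10 genes were chosen with earlier results of these data known, such shares are a description and not a test. These 10 genes have well-filled counts, and among the 4144 tested genes whose mean count lay between those of NEK2 and CDK1 31.4% were lowered and 0.989% were lowered by at least 1. Ordered from the largest fall, PLK1 was at rank 2 and AURKA at rank 5 of those 4144 genes, BIRC5 at rank 44 and CDK1 at rank 2339.

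**Figure D1:**
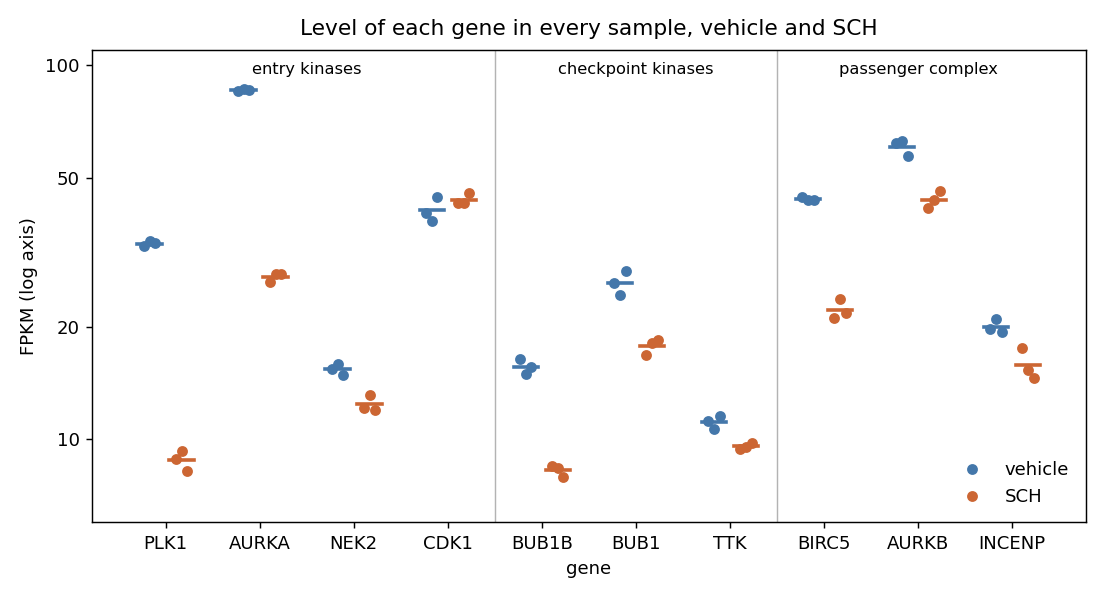
FPKM (log axis) of the 10 genes in each of the 3 vehicle and 3 SCH samples, with a bar at each group's mean, in order of fold change within the entry kinases, the checkpoint kinases and the passenger complex. The groups lie apart for 9 genes and overlap for CDK1, and the widest gaps are those of PLK1 (33.3 against 8.79 FPKM) and AURKA (85.9 against 27.2 FPKM).

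PLK1, the Polo-like kinase that acts on centrosomes, kinetochores and the cleavage site, fell the most of the entry kinases and of all 10 genes. PLK1 (ENSG00000166851, chr16:23677656-23690367, plus strand, GRCh38) had 3153, 2988 and 2926 counts in the vehicle samples and 755, 849 and 768 in the SCH samples. Per length, this was 32.8, 33.8 and 33.4 FPKM against 8.86, 9.29 and 8.21 FPKM. The lowest vehicle sample was more than 3 times the highest SCH sample. The log2 fold change was -1.93 ± 0.06 (SE, adjusted p = 8.47e-18), which leaves 26.2% of the vehicle level, and it ranged from -1.96 to -1.81 over all alternative fits. By FPKM, PLK1 moved from rank 1503 to rank 5208 among the tested genes, the furthest of the 10. Exons of genes on the other strand cover 12.5% of its exonic bases, and those genes had a mean of 0.167 counts. How reads on these bases were assigned was not tested.

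AURKA, the Aurora kinase of the centrosome and spindle, was the most abundant of the 10 in vehicle samples and fell the second most. AURKA (ENSG00000087586, chr20:56369389-56392337, minus strand) had 5049, 4702 and 4618 counts in the vehicle samples and 1379, 1556 and 1589 in the SCH samples. Its level was 85.9 ± 0.556 FPKM in vehicle and 27.2 ± 0.772 in SCH samples (SD, n = 3), with a narrow spread within each group. The log2 fold change was -1.66 ± 0.05 (SE, adjusted p = 1.02e-17), or 31.5% of the vehicle level. The 95% intervals of PLK1 (-2.05 to -1.81) and AURKA (-1.77 to -1.56) did not overlap, and neither overlapped that of the next gene, BIRC5.

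NEK2, which loosens the link between the centrosomes, fell far less. NEK2 (ENSG00000117650, chr1:211658657-211675630, minus strand) had 964, 911 and 845 counts in the vehicle samples and 671, 778 and 730 in the SCH samples. Each SCH sample was below each vehicle sample, at 12.4 ± 0.605 against 15.4 ± 0.519 FPKM. This was a log2 fold change of -0.32 ± 0.06 (SE, adjusted p = 0.000214).

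CDK1, the catalytic partner of the mitotic cyclins, was the 1 gene of the 10 that did not pass the test. CDK1 (ENSG00000170312, chr10:60778331-60794852, plus strand) had 3189, 2803 and 3218 counts in the vehicle samples and 3006, 3220 and 3515 in the SCH samples. Its level was 41.0 ± 3.10 FPKM in vehicle and 43.6 ± 1.61 in SCH samples, and the groups overlapped. The log2 fold change was 0.08 ± 0.06 (SE, 95% interval -0.03 to 0.20, adjusted p = 0.210), so a fall of the size seen in any of the other 9 genes lies outside its interval. The call rested on 1 vehicle sample, since without replicate 3 of the vehicle samples, the one with the most CDK1, the gene passed as raised (0.15, adjusted p = 0.0132). With library size alone as the scaling it also passed as raised (0.18, adjusted p = 0.00698), and in that fit the median of all tested genes stood at 0.099.

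The checkpoint kinases all fell, and by unequal amounts. BUB1B encodes the checkpoint protein that is part of the inhibitor of the anaphase-promoting complex. BUB1B (ENSG00000156970, chr15:40161023-40221136, plus strand) had 1476, 1242 and 1285 counts in the vehicle samples and 679, 718 and 698 in the SCH samples. Its log2 fold change was -0.93 ± 0.06 (SE, adjusted p = 1.08e-11), or 52.6% of the vehicle level, and the groups lay far apart. A read-through gene, BUB1B-PAK6, covers 10.2% of its exonic bases and was at 0 counts in every sample. Whether reads on the shared bases were counted for either gene was not tested. BUB1, which marks histone H2A at centromeres and thereby helps to place the passenger complex, fell less than its relative BUB1B. BUB1 (ENSG00000169679, chr2:110637698-110678114, minus strand) had 3183, 2718 and 3124 counts in the vehicle samples and 1815, 2089 and 2190 in the SCH samples, with no overlap. This amounted to a log2 fold change of -0.56 ± 0.06 (SE, adjusted p = 1.49e-08). TTK, also known as MPS1, the kinase at the top of the checkpoint, was the least abundant of the 10 per length in vehicle samples and changed least of those that passed. TTK (ENSG00000112742, chr6:80003887-80042527, plus strand) had 1036, 907 and 973 counts in the vehicle samples and 770, 838 and 880 in the SCH samples. Its raw counts came close between the groups, and per length all 3 SCH samples (9.40, 9.54 and 9.78 FPKM) were below all 3 vehicle samples (11.2, 10.7 and 11.5 FPKM). In edgeR's fit the change was -0.23 ± 0.06 (SE, adjusted p = 0.00344), and with library size alone as the scaling it was -0.12 with an adjusted p of 0.0972, which no longer passed.

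The 3 genes of the passenger complex among the 10 all fell. BIRC5, the survivin gene, which is also grouped with the inhibitors of apoptosis, fell the most of the 3. BIRC5 (ENSG00000089685, chr17:78214186-78225636, plus strand) had 3411, 3094 and 3057 counts in the vehicle samples and 1437, 1733 and 1635 in the SCH samples. Its level was 43.8 ± 0.424 FPKM in vehicle and 22.2 ± 1.35 in SCH samples. The log2 fold change was -0.99 ± 0.05 (SE, adjusted p = 3.1e-13), which is 50.4% of the vehicle level and stops just short of 1 on the log2 scale. AURKB, the kinase of the complex, fell by less, from the second highest level of the 10. AURKB (ENSG00000178999, chr17:8204733-8210600, minus strand) had 2791, 2604 and 2361 counts in the vehicle samples and 1660, 1875 and 2026 in the SCH samples. AURKB had a log2 fold change of -0.48 ± 0.06 (SE, adjusted p = 1.13e-07), or 71.9% of the vehicle level, with no overlap. INCENP, the scaffold on which the others assemble, had the widest spread of the 10 within the SCH group, where its coefficient of variation was 9.55% (CPM after TMM). INCENP (ENSG00000149503, chr11:62123973-62153163, plus strand) had 1777, 1738 and 1593 counts in the vehicle samples and 1406, 1311 and 1281 in the SCH samples. On the log2 scale INCENP changed by -0.35 ± 0.06 (SE, adjusted p = 6e-05), and each SCH sample stayed below each vehicle sample.

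**Figure D2:**
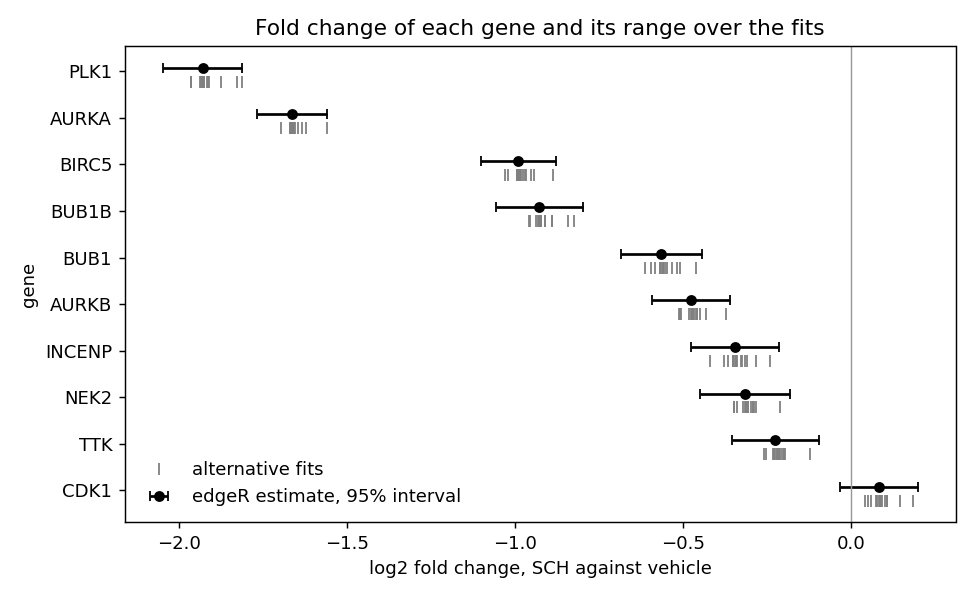
Log2 fold change of each gene, SCH against vehicle, with edgeR's estimate and its 95% interval (black) and the estimates of the alternative fits (grey ticks), ordered by the fall. PLK1 (-1.93) and AURKA (-1.66) stand apart at the left, and the interval of CDK1 (-0.03 to 0.20) includes 0.

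Along the order of the falls, PLK1, AURKA and the pair of BIRC5 and BUB1B were separated from their neighbours by intervals that did not overlap. The intervals of BIRC5 and BUB1B overlapped, as did those of each pair of neighbours from BUB1 through AURKB, INCENP and NEK2 to TTK, while TTK and CDK1 lay apart. The order of the levels also changed. In vehicle samples the level per length ran from AURKA at 85.9 FPKM through AURKB (60.5), BIRC5 (43.8), CDK1 (41.0), PLK1 (33.3), BUB1 (26.2), INCENP (19.98), BUB1B (15.6) and NEK2 (15.4) to TTK at 11.1 FPKM. There BIRC5 could not be told from CDK1, nor BUB1B from NEK2, by the ranges of their samples. In SCH samples AURKB (43.7 FPKM) and CDK1 (43.6) led with overlapping ranges, AURKA followed at 27.2, and PLK1 (8.79) and BUB1B (8.26) came last, again with overlapping ranges. As a share of the summed FPKM of the 10 genes, AURKA went from 24.3% to 13.0% and PLK1 from 9.45% to 4.20%, while CDK1 went from 11.6% to 20.9%. Both the summed level of the group and its mixture thus differed between vehicle and SCH samples.

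How unequal the falls were was measured within each sample as the log2 ratio of the counts of a pair of genes, which does not depend on the scaling between samples. The genes of 8 pairs that work together or are related were compared by a two-sided exact permutation test, whose smallest possible p for 3 samples against 3 is 0.1, so none could pass a threshold of 0.05. The ratio of the Aurora kinases, AURKA to AURKB, was 0.85, 0.85 and 0.97 in the vehicle samples and -0.27, -0.27 and -0.35 in the SCH samples, a difference of -1.19 with no overlap. The ratio of PLK1 to CDK1 was -0.02, 0.09 and -0.14 in vehicle and -1.99, -1.92 and -2.19 in SCH samples. These kinases act on each other at mitotic entry, and their ratio moved by -2.02. Within the passenger complex, BIRC5 to AURKB differed by -0.51 with no overlap, while INCENP to AURKB differed by 0.13 with overlapping groups (exact p = 0.5). The difference for INCENP to AURKB ran from 0.012 to 0.223 when each sample was left out in turn. In the checkpoint, BUB1 to BUB1B differed by 0.36 and TTK to BUB1 by 0.34, both with no overlap. Of the pairs with partners outside the 10 genes, CDK1 to CCNB1, its cyclin, differed by 1.64 and AURKA to TPX2, its activator on the spindle, by -0.89. Apart from INCENP to AURKB, the exact p was 0.1 for each pair (0.114 after adjustment over the 8 pairs).

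**Figure D3:**
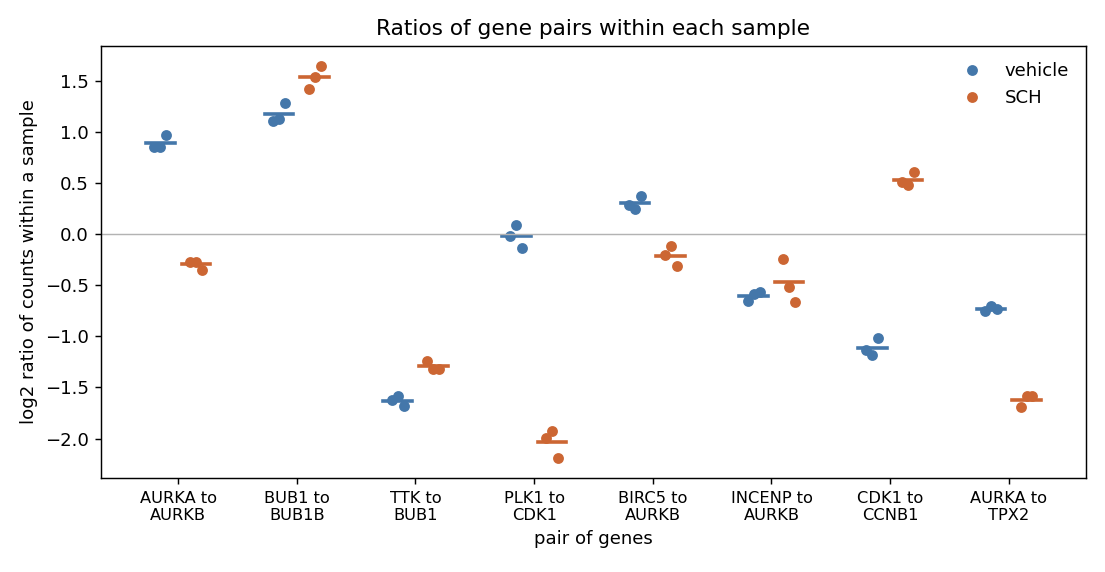
Log2 ratio of the counts of 8 gene pairs within each sample, vehicle and SCH, with a bar at each group's mean; gene length enters the height of a ratio but not its difference between groups. The groups lie apart for 7 pairs and overlap for INCENP to AURKB, and the widest gaps are those of PLK1 to CDK1 (-2.02) and CDK1 to CCNB1 (1.64).

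The partners of these kinases were read from lists of related genes, and counts are given against the 29.4% lowered and 29.3% raised among all tested genes. Of 15 activators and cyclins of the entry kinases, 11 were lowered and none raised, with a median log2 fold change of -0.45. CCNB1, the B-type cyclin that makes CDK1 active, went from 135.7 ± 2.07 to 46.4 ± 0.632 FPKM (SD, n = 3), a log2 fold change of -1.55 (adjusted p = 1.22e-17). TPX2 fell by 0.77 and CCNA2, the A-type cyclin, by 0.72. The CDK1 transcript thus stayed near its vehicle level in samples where the transcripts of its cyclins were lower. Of 6 inhibitors of the entry kinases, 3 were raised and 1 was lowered. CDKN1A, which encodes the CDK inhibitor p21, had 32.8 ± 2.52 FPKM in vehicle and 167.2 ± 2.84 in SCH samples, a log2 fold change of 2.34 (adjusted p = 1.52e-19), and GADD45A, a stress gene whose product binds CDK1, rose by 0.82. WEE1, the kinase that places the inhibitory phosphate on CDK1, fell by 0.65.

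Of 10 recruiters and midzone partners of the passenger complex, 7 were lowered and none raised, with a median of -0.55. CDCA8, the borealin gene and the remaining subunit of the complex, went from 65.8 ± 2.49 to 30.6 ± 0.196 FPKM, a log2 fold change of -1.11 ± 0.05 (SE, adjusted p = 2.23e-14). All 4 subunits of the complex were thus lowered, BIRC5 and CDCA8 with overlapping 95% intervals and AURKB and INCENP by less. KIF20A, the midzone motor that carries the complex and PLK1 to the cell's centre, fell by 1.56, and KIF2C, a centromere motor that AURKB regulates, by 0.65. The 3 genes that did not pass were HASPIN (0.06), SGO1 (0.03) and PRC1 (-0.31), named here after their values were seen. HASPIN encodes the kinase whose histone H3 mark recruits the complex. PRC1 had a mean of 21.7 counts in vehicle and 17.3 in SCH samples, and exons of other genes cover 58.4% of its exonic bases, so its value is uncertain.

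Of 15 partners of the spindle checkpoint, 10 were lowered and 2 raised, with a median of -0.28. CDC20, the activator of the anaphase-promoting complex that the checkpoint holds, went from 216.2 ± 9.83 to 76.8 ± 0.702 FPKM, or 35.4% of the vehicle level in edgeR's fit (adjusted p = 3.79e-17). TRIP13, which takes the checkpoint complex apart, fell by 0.93, and SPDL1, which brings dynein to kinetochores, fell by 0.63. The raised genes were KNL1 (0.23, adjusted p = 0.00688, with overlapping groups), the kinetochore platform on which BUB1 sits, and MAD2L1BP (0.18), a partner of TRIP13.

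Other mitotic kinases did not move as one. Of 9, 4 were lowered and 2 raised, with a median of -0.03. The sign of this median was not stable, since it ran from -0.071 to 0.03 when each sample was left out in turn. NEK6, PBK and CIT fell by 0.89, 0.56 and 0.52, and NEK9, the kinase upstream of NEK6, and MASTL, which restrains the phosphatase PP2A in mitosis, rose by 0.43 and 0.34. Among 22 paralogs of the 10 genes 17 could be tested, of which 5 were lowered and 6 raised, with a median of 0.07. When each sample was left out in turn, this median ran from 0.049 to 0.153, and 8 to 11 paralogs changed. PLK3, a stress-responsive relative of PLK1, rose by 0.61 and PLK2 fell by 0.54. BIRC3, a relative of BIRC5 that acts in NF-kappaB signalling, rose by 1.12, opposite to BIRC5. CDK4, the kinase of early G1, fell by 0.50, and NEK11 fell by 1.66 from a mean of 140.7 to 44.3 counts. Exons of TSPAN31, on the other strand, cover 43.2% of the exonic bases of CDK4, and TSPAN31 had a mean of 392.7 counts. Of 24 genes for phosphatases that oppose these kinases and for their regulators, 22 were tested, of which 6 were lowered and 10 raised, with a median of 0.04 (0.038 to 0.081 with each sample left out in turn). The PP2A subunit genes PPP2R5B and PPP2R5A rose by 1.07 and 0.57, and the catalytic subunit genes PPP1CC and PPP2CA fell by 0.24 each. The counts also hold both PP2A inhibitors on which MASTL acts, ARPP19, which fell by 0.31, and ENSA, which rose by 0.26 and is named here after its value was seen, so they mix opposed roles.

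**Figure D4:**
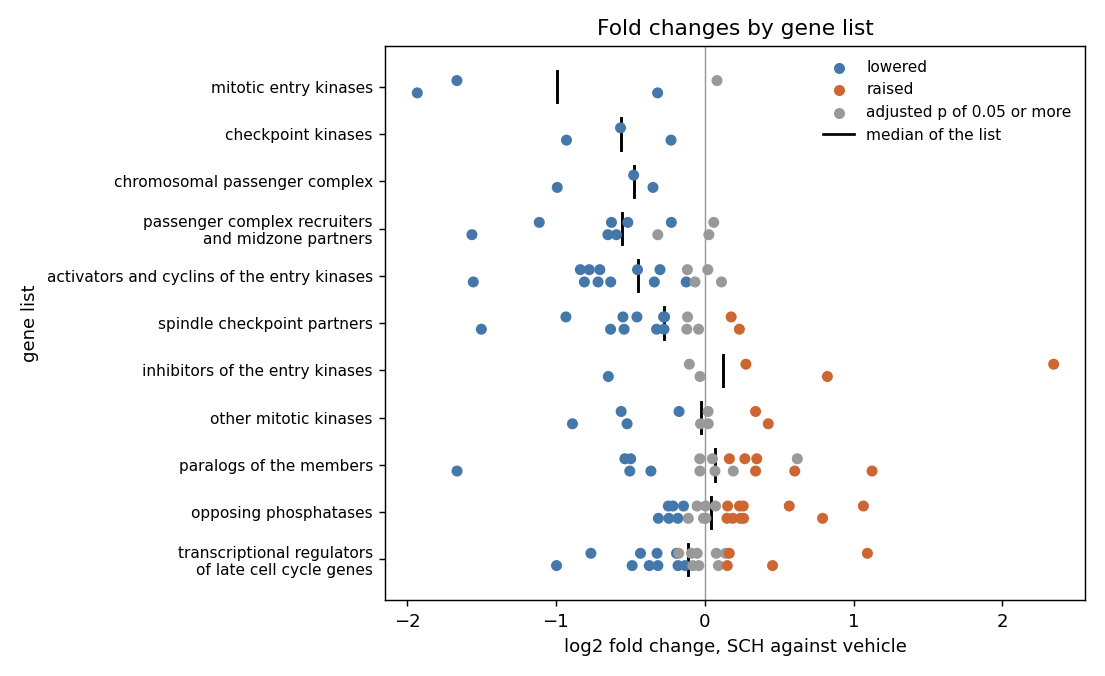
Log2 fold change, SCH against vehicle, of every tested gene in the 3 groups of the 10 genes and in 8 related lists, coloured by the call at an adjusted p of 0.05, with a bar at each list's median. The medians run from -0.99 (entry kinases) to 0.12 (inhibitors), and the lists of activators and of passenger complex partners hold no raised gene.

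Of 22 regulators known to control late cell cycle genes, 10 were lowered and 4 raised, with a median of -0.11, and without replicate 2 of the SCH samples 8 changed in place of 14. FOXM1, a transcription factor known for its action on PLK1, AURKB and CCNB1, went from 31.9 ± 0.324 to 25.7 ± 0.369 FPKM, a log2 fold change of -0.32 ± 0.05 (SE, adjusted p = 5e-06). MYBL2, the B-MYB gene, was at 0.09 with overlapping groups (adjusted p = 0.205), and with library size alone as the scaling it passed as raised (0.20, adjusted p = 0.00769). RBBP4, E2F4 and TFDP1, which belong to the repressor complex of these genes, fell by 0.76, 0.49 and 0.43, and LIN54, the subunit that reads the CHR, rose by 0.46. LIN37 was called raised at a mean of 11.7 and 25.0 counts, with exons of other genes over 54.0% of its exonic bases. Of 6 reference genes used for normalization in other assays, 4 were lowered and 1 raised, and ACTB, the beta-actin gene, fell by 0.79, GAPDH by 0.29 and PPIA by 0.38, while B2M rose by 0.29. The fall of ACTB was larger than those of BUB1, AURKB, INCENP, NEK2 and TTK.

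The mean profile of the 10 genes, each as log2 CPM minus its vehicle mean, was 0.005, -0.014 and 0.009 in the vehicle samples and -0.756, -0.711 and -0.739 in the SCH samples. The 5 genes outside all lists with the smallest Euclidean distance to this profile over the 6 samples, taken from the 7024 changed genes that averaged 100 counts or more, were FSTL1 (0.036), TMEM165 (0.045), DKC1 (0.050), PSAT1 (0.050) and RBM12 (0.063). They encode a secreted glycoprotein, a Golgi membrane protein, a component of telomerase and of pseudouridine ribonucleoproteins, an enzyme of serine synthesis and an RNA-binding protein. Each had a log2 fold change of -0.73, and with 6 samples in 2 groups a small distance says little more than that the sizes of the changes were alike. The changes of the 10 genes themselves ran from -1.93 to 0.08.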

How the data were processed

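The authors deposited raw counts per gene and FPKM values (counts per gene length and library scale) for 6 samples of MDA-MB-231 cells, 3 given vehicle and 3 given SCH. The libraries (NEBNext Ultra, poly-T) do not mark strand. The submitters' processing notes name CASAVA 1.8, HISAT2 2.0.5, featureCounts 1.5.0-p3, DESeq2 1.20.0 and GRCh38. The labels give RPMI-1640 as the medium and the paper's methods give DMEM.

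Counts were tested in R 4.3.3 with edgeR 4.0.16 (TMM, filterByExpr, quasi-likelihood test, Benjamini-Hochberg adjustment over 14736 genes, threshold 0.05, no covariate). SEs were derived from each fold change and its F statistic. The common biological coefficient of variation was 5.17%. The fit was tested on simulated data. The members and lists were chosen with earlier results of these data known. Named from each list are at most 3 lowered and 2 raised genes with the smallest adjusted p, with further genes set by the design, of which 1 is not reported here. Alternatives were other scalings (RLE, upper quartile, library size only), other filters, DESeq2 1.42.0, limma 3.58.1 on log2(FPKM + 1) and log2(FPKM + 0.1), a replicate block, each sample left out and a fold threshold. A floor of 3 counts was set, and the members' mean counts over the 6 samples, 816.5 to 3158, lie far above it. Proteins were not compared here.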

Additional observations from a re-analysis of the deposited data

How the results depend on the processing

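The 9 falls kept their direction under all 15 alternative fits and passed in each, except TTK with library size alone (-0.12, adjusted p = 0.0972). With library size alone in edgeR the members' median moved from -0.52 to -0.42, and rises made up 62.6% of all calls in place of 49.9%. A threshold of at least 1 on the log2 scale left 1292 changed genes and 2 members changed, both lowered (PLK1 and AURKA). Leaving out each sample in turn gave 7809 to 8489 changed genes, 9 to 10 members changed, 9 lowered in every fit, and a median of -0.55 to -0.47. Leaving out replicate 2 of the SCH samples took the changed regulators of late cell cycle genes from 14 to 8. The median of the inhibitors of the entry kinases, 0.12 in the main fit, ran from 0.068 to 0.165 with each sample left out in turn. CDK1 stayed above 0 in every fit (0.04 to 0.18) and passed in 2 of them. The pair ratios moved by less than the larger of the SDs of the 2 groups under every alternative run for them.

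Replicate numbers in the labels were checked for pairing. The deviations of samples with the same number correlated at 0.046, -0.022 and 0.022 across genes, and not every sample correlated best with its own number. These values gave no sign of pairing. With 3 samples per group the check is weak, so whether samples of the same number were handled together stays unknown. With the replicate block 8705 genes changed in place of 8650, 9 members were lowered, and the members' median was -0.52.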

Other observations

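Genes of DNA replication, which act before the mitotic kinases in the cell cycle, were also measured. Of 24 such genes, 12 were lowered and 4 raised at an adjusted p under 0.05 (edgeR), against 29.4% lowered and 29.3% raised among all tested genes, with a median log2 fold change of -0.15. MCM5 and MCM6, subunits of the replicative helicase, fell by 0.89 and 0.77, and GINS2, its cofactor, fell by 0.93, from 16.1 ± 0.431 to 8.46 ± 0.403 FPKM (SD, n = 3). RRM2, a subunit of ribonucleotide reductase, rose by 0.43, and CCNE1, the cyclin of S phase entry, rose by 0.68, from 6.93 ± 0.289 to 11.1 ± 1.11 FPKM. Whether these changes and those of the mitotic genes share an origin was not tested.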
